A study of Mus musculus with 10 samples.

Results

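The glucocorticoid receptor (GR) sites described here are GR peaks of differentiating 3T3-L1 cells that stood apart from every C/EBPβ peak listed at 6 h. They were chosen by position: a GR peak at 6 h was taken when it shared no base with any C/EBPβ peak of the 6 h list, which held for 1339 of 4007 GR peaks (33.4%, 95% Wilson interval 31.97 to 34.9%). The other 2668 GR peaks shared at least 1 bp with such a peak. All 1339 sites entered the counts below, and no peak was filtered out. The presence or absence of C/EBPβ at 6 h chose these sites and is therefore not a finding.

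GR is a nuclear receptor that enters the nucleus on binding glucocorticoid and binds DNA at glucocorticoid response elements, or reaches chromatin through other bound factors. C/EBPβ is a leucine zipper factor induced early in adipogenesis, before the adipocyte regulators PPARγ and C/EBPα. Acetylation of histone H3 at lysine 9 (H3K9ac) marks active promoters and enhancers. Glucocorticoid is commonly part of the hormone mixture that starts differentiation of 3T3-L1 cells, and GR and C/EBPβ are both known to act in that early phase.

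3T3-L1 is a mouse preadipocyte line that was differentiated in culture by a standard protocol, whose agents the labels do not name. Chromatin immunoprecipitation with sequencing gave 1 library for GR at 6 h after induction, 1 each for C/EBPβ in undifferentiated cells (0 h) and at 6 h, and 1 each for H3K9ac at 0, 24 and 240 h. The labels give a pair of antibodies for the single GR library. No genotype or other treatment is named for any group. The lists of GR, C/EBPβ at 0 h and C/EBPβ at 6 h held 4007, 10359 and 20746 peaks. The H3K9ac list of 0 h held 4429 regions, that of 24 h held 1629 and that of 240 h held 7845, all outside transcription start sites and, per the labels, enriched at that time over another time. With 1 library of unknown depth per group there is no replicate error and no p-value. The intervals given are 95% intervals of counting error over listed peaks (Wilson for a share, Newcombe for a difference of shares). A height averages all cells in the culture, so binding in fewer cells and weaker binding per cell cannot be told apart.

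GR sites without C/EBPβ were somewhat lower and clearly narrower than GR sites with C/EBPβ. Their peak height, the authors' whole-number read signal, ran from 12 to 86 with a median of 16 and quartiles of 13 and 22. Sites with C/EBPβ ran from 12 to 128, with a median of 17 and quartiles of 13 and 25. The ranges overlapped almost wholly, and the groups parted mainly among the highest peaks. A height of 30 or more was listed for 160 sites without C/EBPβ (11.9%, 10.3 to 13.8%) and for 486 with it (18.2%, 16.8 to 19.7%), against 16.1% of all GR peaks. The difference was -6.27 percentage points (-8.49 to -3.94), beyond counting error. Heights of 80 or more were listed for 1 site without and 31 with C/EBPβ, and heights of 100 or more for 0 and 11.

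The upper end of the GR list thus held few of these sites. They made up 1 of the 25 highest GR peaks, 10 of the 100 highest (10.0%, 5.52 to 17.4%) and 120 of the 500 highest (24.0%, 20.5 to 27.9%), against 33.4% of the whole list. At the other end, 236 of them (17.6%, 15.7 to 19.8%) stood at the lowest listed height of 12, close to the 15.3% (13.98 to 16.7%) of sites with C/EBPβ. Heights at or above the GR median of 16 were found for 52.7% (50.05 to 55.4%) of sites without and 57.4% with C/EBPβ, where all GR peaks had 55.9%. That difference was -4.70 points (-7.96 to -1.43). By the authors' fold enrichment, whose background the sources used here do not describe, no such difference was seen at the median. Both sets had a median fold enrichment of 7.87, and the shares at or above the median differed by -0.00014 points (-3.28 to 3.28). Above it they parted slightly, with upper quartiles of 9.87 without and 10.42 with C/EBPβ. The height difference was also not seen among GR peaks of like width. When all GR peaks were cut by width into 4 classes of near equal size, sites without C/EBPβ reached the median height more often by 4.08 points (-1.98 to 10.06), 3.38 points (-2.95 to 9.64) and 6.92 points (0.203 to 13.4) in the classes from the narrowest up. In the widest class the difference was -3.21 points (-12.6 to 5.18). Only the 6.92 points exceeded counting error.

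Width separated the sets more than strength did. Sites without C/EBPβ had a median width of 294 bp (quartiles 238 and 376, range 140 to 1005). Those with C/EBPβ had a median of 390 bp (quartiles 299 and 506, range 113 to 1622). A width of 500 bp or more was found for 6.72% (5.50 to 8.19%) of the former and 25.97% (24.3 to 27.7%) of the latter, against 19.5% of all GR peaks. At or above the GR median width of 354 bp were 30.3% and 60.04%, against 50.1% of all GR peaks. A wider peak meets another list more easily, so this difference is tied in part to the rule. Where the GR peak's centre lay inside the C/EBPβ peak, as in 2588 of the 2668 sites with C/EBPβ, the median width was 388 bp. The gap in width was present at each level of height. GR peaks were ranked by height and cut into 4 classes of near equal size. The median widths without and with C/EBPβ were 344 and 452 bp in the highest class, 297 and 400 bp in the next, 270.5 and 367 bp in the one after and 270 and 346.5 bp in the lowest. Seen from the other side, 54.9% (51.8 to 57.9%) of GR peaks in the narrowest of the 4 width classes and 11.7% (9.83 to 13.8%) in the widest lacked C/EBPβ. Height rose with width about equally in both sets (Spearman's rho 0.296 over 1339 and 0.2999 over 2668 peaks of the same library, given as a description).

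**Figure D1:**
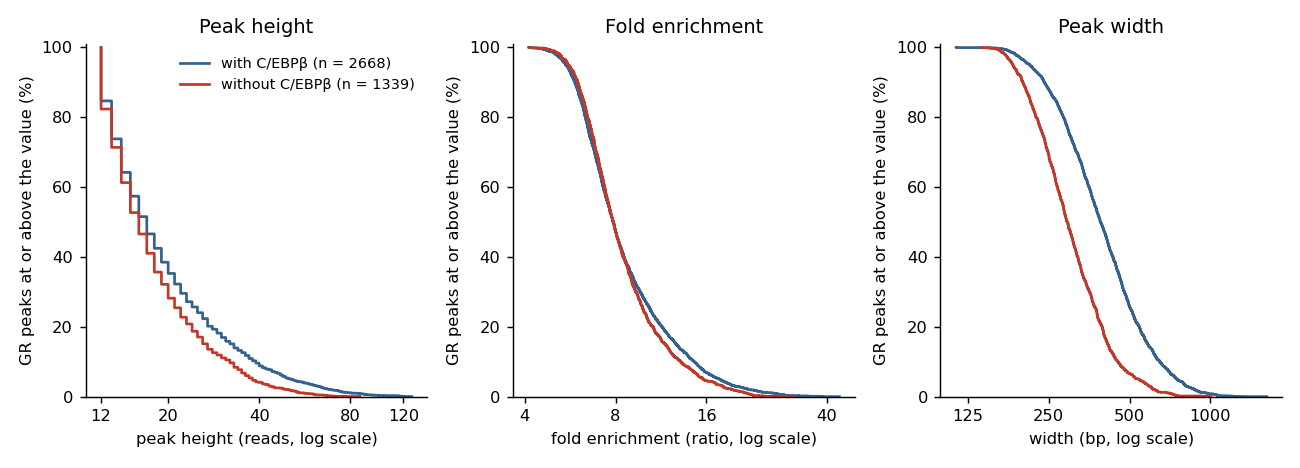
Share of GR peaks (%) at or above each peak height (left), fold enrichment (centre) and width in bp (right), on log horizontal axes, for the 1339 peaks without and the 2668 with a C/EBPβ peak at 6 h. The fold enrichment curves lie together up to their medians of 7.87 and part slightly above them, the height curves part toward high values (11.9% against 18.2% at 30 or more), and the width curves are apart throughout (medians of 294 and 390 bp).

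Although they shared no base with C/EBPβ, many of these sites lay in its neighbourhood. The gap to the nearest C/EBPβ 6 h peak ran from 4 to 3072332 bp with a median of 10015 bp and quartiles of 2906 and 31263 bp. It was under 100 bp for 39 sites, under 1 kb for 154 (11.5%, 9.90 to 13.3%), under 10 kb for 669 (49.96%, 47.3 to 52.6%) and under 100 kb for 1256 (93.8%). The same shares over all GR peaks, for a C/EBPβ peak that the GR peak does not overlap, were 15.2%, 56.4% and 96.0% under 1, 10 and 100 kb. At 83 sites no C/EBPβ 6 h peak lay within 100 kb. These gaps describe what the rule used. For a like measure in the other set, the C/EBPβ peak that a GR peak overlapped was set aside. Another C/EBPβ 6 h peak then lay within 10 kb of 59.7% of the sites with C/EBPβ, and sites without it differed from them by -9.71 points (-13.0 to -6.44). Within 100 kb the median number of C/EBPβ 6 h peaks, overlapped ones not counted, was 4 around sites without and 6 around sites with C/EBPβ.

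The rule draws a line that a few peaks on both sides came close to. In mm8 coordinates, as for all positions given here, just inside it lay a site at chr18:8295434-8295619, with a GR height of 13 and a gap of 4 bp to a C/EBPβ peak of height 24. It was followed by sites at chr6:13002804-13003147 and chr5:75255506-75255949, with GR heights of 13 and 12 and gaps of 9 and 14 bp. Just outside it, GR peaks at chr19:23202954-23203183, chr8:10671835-10672433 and chr13:32508941-32509386 shared 5, 9 and 12 bp with a C/EBPβ peak, with GR heights of 40, 17 and 29. In all, 20 sites had a gap under 50 bp and 10 GR peaks shared under 50 bp, so few peaks sit close to the line.

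Farther from C/EBPβ the sites were narrower, and the upper quartile of their height was lower too. Median height was 16 for sites within 1 kb of a C/EBPβ 6 h peak, 16 from 1 to 10 kb, 16 from 10 to 100 kb and 15 beyond 100 kb. Upper quartiles of height in that order were 22.5, 22, 21 and 18.5, and median widths were 314.5, 307, 284 and 269 bp. No interval was computed for either trend. The tallest site of all lay 16383 bp from C/EBPβ. The C/EBPβ peaks next to a site within 1 kb were like their list in height but more often carried GR. These 152 peaks had a median height of 18 (quartiles 14 and 27.25), against 18 (14 and 26) for the whole C/EBPβ 6 h list and 28 for C/EBPβ peaks that overlapped GR. Of them, 42 (27.6%, 21.1 to 35.2%) overlapped another GR peak, against 2706 of all 20746 C/EBPβ 6 h peaks (13.0%, 12.6 to 13.5%). The 152 were picked for a GR peak within 1 kb and the whole list was not, so this excess is given as a description.

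C/EBPβ in undifferentiated cells, whose list the rule did not use directly, was also rare at these sites. A C/EBPβ 0 h peak overlapped 15 of them (1.12%, 0.680 to 1.84%), against 38.8% of the sites with C/EBPβ at 6 h and 26.2% of all GR peaks, and lay within 1 kb of 66 (4.93%, 3.89 to 6.22%). Within 1 kb of a C/EBPβ 0 h peak lay 42.6% of the sites with C/EBPβ at 6 h and 30.0% of all GR peaks. These lists come from the same factor and are not independent. Of the C/EBPβ 6 h peaks, 7396 (35.7%) overlapped a 0 h peak, and the 0 h list held just 10359. The rule left out GR peaks on bases listed at both times, so the low overlap with 0 h peaks is tied to the rule. With C/EBPβ 0 h peaks that the GR peak overlaps set aside, one lay within 1 kb of 51 sites without C/EBPβ (3.81%) and of 7.20% of those with it, where all GR peaks had 6.06%, a difference of -3.39 points (-4.77 to -1.90). Of the 66, 48 also had a C/EBPβ 6 h peak within 1 kb, and 1167 sites (of 1339) had neither.

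The 15 sites on C/EBPβ 0 h peaks are places where C/EBPβ was listed before induction and GR, but no C/EBPβ on the same bases, at 6 h. At 8 of them the C/EBPβ 0 h peak met no 6 h peak at all, and at the other 7 it met a 6 h peak lying beside the GR site. Their C/EBPβ 0 h heights ran from 12 to 64 with a median of 14, against a median of 24 under the 1036 GR peaks with C/EBPβ at both times. Their GR heights ran from 12 to 33 with a median of 16. The highest of them by GR, at chr17:80709734-80710066, had a GR height of 33 and a C/EBPβ 0 h height of 12. The next lay at chr3:138186175-138186459, with a GR height of 24 and a C/EBPβ 0 h height of 32, inside an H3K9ac 0 h region (chr3:138185100-138187050). One at chr4:149715500-149715852 had heights of 21 and 13. None of the 15 was near an H3K9ac region of 24 or 240 h, and 1 was near one of 0 h. The shares near regions of 24, 240 and 0 h were 6.20%, 3.06% and 3.29% over all 1339 sites. Over all GR peaks they were 8.61%, 4.44% and 4.27%, so 15 sites are too few to show a difference.

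**Figure D2:**
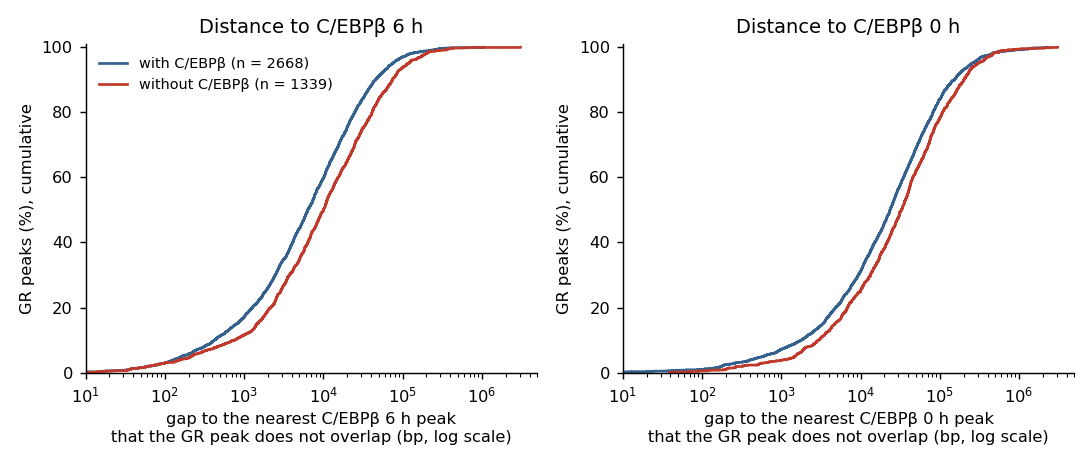
Cumulative share (%) of GR peaks against the gap in bp (log axis) to the nearest C/EBPβ peak at 6 h (left) and 0 h (right) that the GR peak itself does not overlap, for peaks without (red) and with (blue) a C/EBPβ 6 h peak. Peaks without C/EBPβ lie to the right of the others at both times, reaching 49.96% against 59.7% at 10 kb from C/EBPβ 6 h.

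Most of these GR sites had no listed H3K9ac region nearby, and those that did were most often near regions of 24 h. Nearness was set at a gap under 1 kb. A 24 h region lay near 83 sites (6.20%, 5.03 to 7.62%), a 0 h region near 44 (3.29%, 2.46 to 4.38%) and a 240 h region near 41 (3.06%, 2.27 to 4.13%). The shares over all GR peaks were 8.61%, 4.27% and 4.44%. The 24 h list led although it was the shortest, covering 2.72 Mb against 8.25 Mb at 0 h and 16.6 Mb at 240 h. The lead was lost among regions with an FDR of 0, the lowest listed, which lay near 2.32% (1.64 to 3.27%) of sites for 24 h, 2.39% (1.70 to 3.35%) for 0 h and 1.94% (1.33 to 2.83%) for 240 h. Such regions numbered 287 at 24 h, 2234 at 0 h and 3551 at 240 h. A region of any list was near 167 sites (12.5%), against 19.7% of sites with C/EBPβ and 17.3% of all GR peaks, and 1172 (87.5%) were near none. Just 1 site was near regions of more than 1 list, those of 24 and 240 h. Each list holds regions enriched at its time over another, so this is tied to how the lists were made. It was also no trait of these sites alone. Of the sites with C/EBPβ, 127, 262 and 137 were near regions of 0, 24 and 240 h, and 526 were near any.

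The H3K9ac shares were lower than at GR sites with C/EBPβ for each list. The ratio of the shares was 0.631 (0.498 to 0.801, Katz log interval) for regions of 24 h. For regions of 0 h it was 0.690 (0.493 to 0.967), and for those of 240 h it was 0.596 (0.423 to 0.840). The 3 intervals overlap widely, so no time stood apart in this respect. In the same order the differences were -3.62 points (-5.29 to -1.84), -1.47 (-2.68 to -0.149) and -2.07 (-3.28 to -0.756). With the width of GR peaks held equal, by weighting over 4 width classes, the 24 h difference was -1.64 points (-3.40 to 0.112), within counting error, while that at 0 h was -1.71 (-3.11 to -0.309) and that at 240 h -3.06 (-4.56 to -1.56). Weighting over height classes instead gave -2.95 (-4.62 to -1.29) at 24 h. At 0 and 240 h the differences came within counting error among the 2003 higher-ranked GR peaks, at -0.857 (-2.33 to 0.909) and -1.08 (-2.75 to 0.897).

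**Figure D3:**
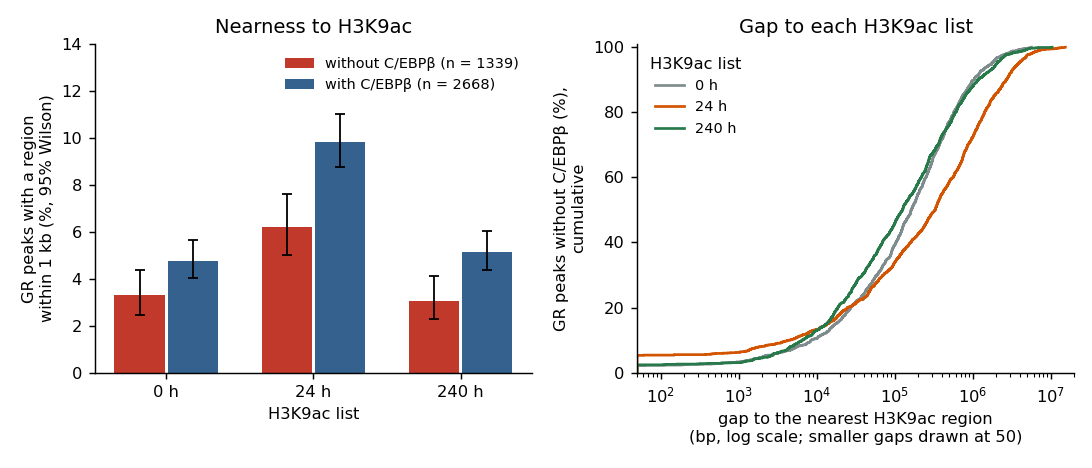
Left, share (%) of GR peaks with an H3K9ac region of 0, 24 or 240 h within 1 kb, without (red) and with (blue) C/EBPβ at 6 h, with 95% Wilson intervals as error bars. Right, for the 1339 peaks without C/EBPβ, the cumulative share (%) against the gap in bp (log axis) to the nearest region of each list, where the 24 h list leads at short range (6.20% under 1 kb) and the longer lists lead at long range (39.2% for 0 h and 45.9% for 240 h against 33.9% for 24 h under 100 kb).

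With regions of any listed FDR, the lead of the 24 h list was seen at short range. Direct overlap was seen at 71 sites (5.30%) for 24 h, 29 (2.17%) for 0 h and 30 (2.24%) for 240 h, where all GR peaks had 6.96%, 3.29% and 3.42%. Of the 71, 54 lay wholly inside the region. Within 10 kb the shares were 13.2% (11.5 to 15.1%) for 24 h, 10.53% (8.998 to 12.3%) for 0 h and 12.99% (11.3 to 14.9%) for 240 h, and their intervals overlap. The lower quartiles of the gap already had another order, at 27919.5 bp to the 240 h list, 42079 bp to the 0 h list and 47570 bp to the 24 h list. Within 100 kb the order had turned, with 33.9% for 24 h, 39.2% for 0 h and 45.9% for 240 h. All GR peaks had 16.5%, 11.7% and 13.5% within 10 kb and 37.5%, 41.9% and 44.5% within 100 kb. The median gaps were 328812 bp to the 24 h list, 161376 bp to the 0 h list and 125204 bp to the 240 h list. At 100 kb sites without and with C/EBPβ no longer differed beyond counting error for the 240 h list (2.04 points, -1.22 to 5.31), but still did for 24 h (-5.41, -8.52 to -2.25) and 0 h (-4.01, -7.21 to -0.771).

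Within the set, higher GR peaks were more often near 24 h regions. Sites near a 24 h region had a median height of 19 (12 to 61), against 16 (12 to 86) for the rest. They were also wider, with a median of 334 bp against 290.5 bp. A height of 20 or more was found for 40 of 83 near sites (48.2%) and 391 of 1256 others (31.1%), a difference of 17.1 points (6.31 to 27.9). The same comparison gave -5.08 points (-16.3 to 9.71) for 0 h regions and 4.54 (-8.71 to 20.03) for 240 h regions, both within counting error. Across height classes the trend was uneven. A 24 h region lay near 11.1% (7.94 to 15.3%) of sites in the highest class, 5.48% in the next, 2.25% (1.14 to 4.37%) in the one after and 7.003% (4.79 to 10.1%) in the lowest, and the highest and lowest classes differed by 4.11 points (-0.348 to 8.88). Sites without C/EBPβ differed from those with it by -6.32 points (-10.6 to -1.36) in the highest class and -2.92 points (-5.99 to 0.554) in the next. The difference was -4.87 points (-7.38 to -2.13) in the one after and 1.57 points (-1.44 to 5.04) in the lowest. Whether the classes differ in this was not tested.

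By width the picture was simpler. The share near 24 h regions was 4.18% in the narrowest class of GR peaks without C/EBPβ, 6.53% and 6.23% in the middle classes and 14.5% (9.27 to 22.0%) in the widest. Sites with C/EBPβ had 6.19%, 7.11%, 9.55% and 13.8%. Within each of the 4 width classes the sets differed by less than counting error, with differences between -3.32 and 0.745 points. Just 117 sites without C/EBPβ fell in the widest class, against 885 with it.

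**Figure D4:**
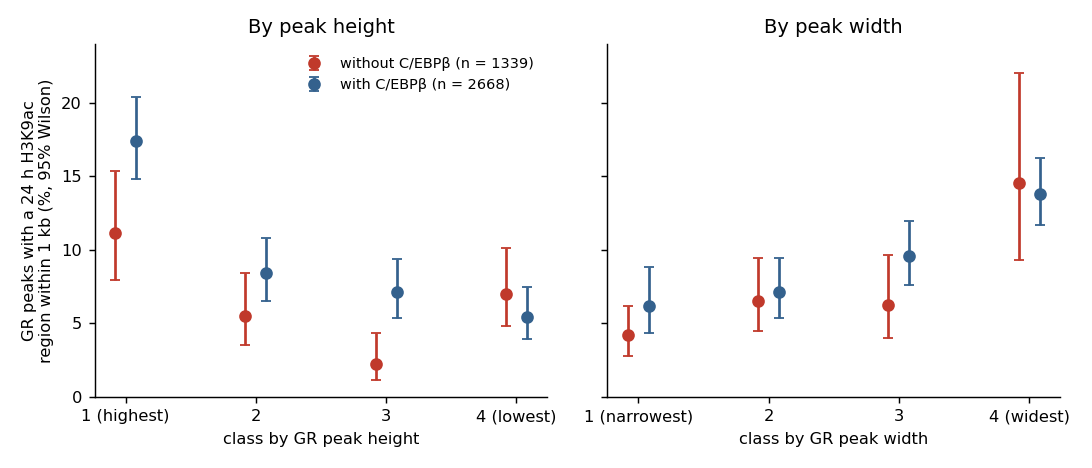
Share (%) of GR peaks with an H3K9ac 24 h region within 1 kb, by class of GR peak height (left) and of GR peak width (right), for peaks without (red) and with (blue) C/EBPβ at 6 h, with 95% Wilson intervals as error bars. Among the highest peaks those without C/EBPβ stand lower (11.1% against 17.4%), with intervals that overlap slightly. In height class 3 (2.25% against 7.12%) the intervals do not overlap, and at equal width they overlap in all 4 classes.

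The acetylated regions beside these GR sites were then described from their own values. Near at least 1 site were 93 regions of 24 h (5.71%, 4.68 to 6.94% of that list), 47 of 0 h (1.06%) and 41 of 240 h (0.523%). Of the 93 regions of 24 h, 85 had no GR peak with C/EBPβ nearby, and 3 had 2 of the sites. Over the whole 24 h list of 1629 regions, 253 (15.5%) were near GR peaks with C/EBPβ alone and 8 (0.491%) near both kinds. Lacking a GR peak with C/EBPβ was thus usual in that list. Of those 85, 14 (16.5%, 10.1 to 25.8%) had a C/EBPβ 6 h peak elsewhere within 1 kb of the region, against 22.9% (20.7 to 25.3%) of 24 h regions near no GR peak, a difference of -6.44 points (-13.3 to 3.11). The same comparison gave -0.094 points (-9.66 to 13.8) for 0 h regions and 12.2 points (1.70 to 27.4; 23.1% against 10.9%) for 240 h regions, so the lists did not share a direction. It rests on the C/EBPβ 6 h list that chose the sites and is given as a description. An FDR of 0 was given for 29.4% of the 85 and for 13.4% of the 24 h regions near no GR peak, a difference of 16.01 points (7.16 to 26.6). The 0 h and 240 h lists showed the same direction, with 19.9 points (5.41 to 31.3) and 16.6 points (0.896 to 30.2). Regions near these sites were also longer, with medians of 1550 against 1250 bp at 24 h, 1950 against 1450 bp at 0 h and 1750 against 1600 bp at 240 h. The part of region length in the FDR difference was not tested. Compared with 24 h regions near GR peaks with C/EBPβ alone, of which 33.6% had an FDR of 0, the difference was -4.19 points (-14.7 to 7.603).

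The highest GR sites without C/EBPβ were scattered over several chromosomes. The tallest stood at chr5:118685731-118686141, with a peak height of 86, a fold enrichment of 28.36 and rank 25 in the whole GR list. An H3K9ac 24 h region began 1459 bp from it, at chr5:118687600-118689400, and another site of this set lay 40203 bp away. The second, at chr2:27153598-27153977, had a height of 77 and a gap of 60627 bp to C/EBPβ. It was followed by a site at chr13:103745986-103746337, with a height of 71 and the set's highest fold enrichment, 31.17. That site stood 183 bp from a C/EBPβ 6 h peak of height 20, and 1613 bp from a 24 h region. These strong sites thus ranged from the immediate edge of a C/EBPβ peak to many kilobases away.

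A site at chr15:78958679-78959132 had a height of 69 with no C/EBPβ 6 h peak nearer than 152195 bp and no other GR peak nearer than 761989 bp. Its nearest C/EBPβ 0 h peak was 20553 bp away. Further sites stood at chr11:59777054-59777509 (height 67) and at chr11:11744398-11744908 (height 65), the latter 301 bp from a C/EBPβ peak of height 45 and 419 bp from a GR peak with C/EBPβ. Others were at chr19:43968691-43969170 (height 67), 660 bp from C/EBPβ, and at chr19:5850076-5850496 (height 62). The last of the 10 highest were chr2:167551707-167552157 and chr6:91506935-91507908, both with a height of 61. Of these 10, the chromosome 6 site alone was near an H3K9ac region of any time, that of 24 h. Near any list were 12.5% of all 1339 sites and 17.3% of all GR peaks, so this count lies near those shares.

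That chromosome 6 site was also the highest of those near 24 h regions. It was 973 bp wide and lay inside a 24 h region, chr6:91506150-91510450, with an average read count of 12. The next, chr12:92284478-92284898, had a height of 58 and lay inside a region, chr12:92282950-92285050, whose average read count of 17 was the highest among 24 h regions near these sites. Its nearest C/EBPβ 6 h peak was 37889 bp away and its nearest other GR peak 3458752 bp away. Sites at chr10:27076970-27077574, chr2:7160023-7160312 and chr8:73092360-73092640 followed with heights of 54, 52 and 51. The chromosome 2 site lay 82 bp from a C/EBPβ 6 h peak, and those on chromosomes 10 and 8 lay 20643 and 23094 bp from one. A 24 h region beside a strong GR site was thus seen both with C/EBPβ at its edge and with none for many kilobases.

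The highest sites near 0 h and 240 h regions were lower than those near 24 h regions. Median heights were 15 over the 44 sites near 0 h regions and 17 over the 41 near 240 h regions. Over the 83 near 24 h regions the median was 19. These sets differ in size and their heights were not compared with one another by interval. Heights near 0 h regions ended at 38, at a site, chr16:34829160-34829468, inside the region chr16:34826600-34830100. The next were chr15:75655476-75655772 (height 37) and chr6:117296344-117296705 (height 36). Near 240 h regions the highest were chr12:74697027-74697318 (height 35), chr8:97078548-97078949 (height 34) and chr15:51560911-51561193 (height 32). None of these 6 reached the heights of the 5 highest near 24 h regions.

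GR sites without C/EBPβ were less clustered than those with it. Another GR peak lay within 10 kb of 257 sites (19.2%, 17.2 to 21.4%) and of 735 with C/EBPβ (27.5%, 25.9 to 29.3%), where all GR peaks had 24.8%. The difference was -8.36 points (-11.0 to -5.60). Within 1 kb the shares were 4.85% and 8.58%, against 7.34% of all GR peaks, and within 100 kb they were 60.3% and 70.5%, against 67.1%. Within 10 kb, 169 sites (12.6%) had a GR peak with C/EBPβ and 105 (7.84%) another site of their own kind. The whole list held 2668 GR peaks with C/EBPβ and 1339 without, and a preference for either kind was not tested. Closeness to other GR peaks went with closeness to C/EBPβ. Another GR peak within 10 kb was found for 40.9% (33.5 to 48.8%) of sites within 1 kb of C/EBPβ, 28.5% from 1 to 10 kb, 7.33% from 10 to 100 kb and 4.82% (1.89 to 11.7%) beyond. At 43 sites no other GR peak and no C/EBPβ peak of either time lay within 100 kb. Their heights ran from 12 to 45 with a median of 14, and 26 of them also had no H3K9ac region of any list within 100 kb. Neither count was made over all GR peaks, so neither is read as a trait of these sites. Over all GR peaks the median gaps to the 0, 24 and 240 h lists were 146588, 256447 and 131265 bp, all above 100 kb. The sites farthest from C/EBPβ were chrX:108465005-108465331, chrX:19061313-19061588 and chr7:142825354-142825605, with gaps of 3072332, 694978 and 615357 bp and heights of 13, 12 and 14.

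Windows of 100 kb with several of these sites were uncommon. Of the windows that held any, 1091 held 1 site, 103 held 2, 10 held 3 and 3 held 4. One of the last, chr16:15800000-15900000, held 4 sites with heights of 13 to 28 and 1 H3K9ac 24 h region but no C/EBPβ peak of either time. Another, chr17:28200000-28300000, held 4 sites with heights of 12 to 37 among 6 GR and 4 C/EBPβ 6 h peaks, with 3 H3K9ac 24 h regions. The window chr6:91500000-91600000, which includes the site of height 61, held 4 sites among 5 GR and 8 C/EBPβ 6 h peaks. All 3 had at least 1 region of 24 h and differed in C/EBPβ, but the number of sites in a window did not go steadily with such regions. Windows with a 24 h region were 233 of 1091 with 1 site (21.4%), 41 of 103 with 2 (39.8%) and 2 of 10 with 3.

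The share of GR peaks without C/EBPβ varied by chromosome. It was lowest on chromosome 6, with 106 of 468 (22.6%, 19.1 to 26.7%), and on chromosome 15, with 68 of 284 (23.9%, 19.3 to 29.2%). It was highest on chromosome X, with 41 of 80 (51.25%, 40.5 to 61.9%), and on chromosome 7, with 79 of 163 (48.5%, 40.9 to 56.1%). The interval lay below the whole-list share of 33.4% on 2 chromosomes and above it on 4, chromosomes 9 and 11 being the others, of 20 examined. Chromosome 6 held 2019 C/EBPβ 6 h peaks, or 4.31 per GR peak, and chromosome X held 482, or 6.03 per GR peak. The median gap from these sites to C/EBPβ was 5156 bp on chromosome 6 and 12487 bp on chromosome X. Whether the number of C/EBPβ peaks goes with the share was not tested. Together chromosomes 6 and 15 held 23.1%, against 35.8% on the others, a difference of -12.7 points (-15.97 to -9.11) that was singled out after the values were seen. Without these chromosomes the 24 h difference between sites without and with C/EBPβ was -4.06 points (-5.96 to -2.05). Median heights of the sites were 15 on chromosome 6 and 16 on chromosomes 15 and X.

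**Figure D5:**
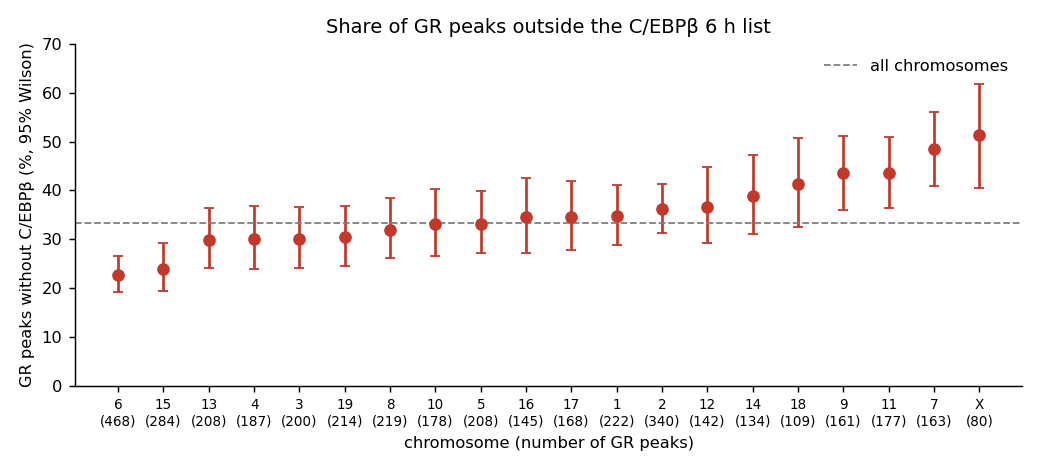
Share (%) of the GR peaks of each chromosome that lack a C/EBPβ peak at 6 h, with 95% Wilson intervals, in order of the share; the number of GR peaks stands under each chromosome. Chromosomes 6 (22.6%) and 15 (23.9%) lie below the dashed line of the whole list (33.4%), and chromosomes 9, 11, 7 and X lie above it with intervals that leave it out.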

How the data were processed

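The labels' protocols state that 36 bp reads were aligned by ELAND to mouse build mm8, with at most 2 mismatches. Reads with a unique position were used, and a start coordinate counted once, which leaves repeats uncovered and limits the tallest peaks. Which program called peaks, at what threshold and against which control is not given in the sources used here. Per the file headers, the deposited GR and C/EBPβ lists give a fold enrichment (a ratio) and a peak height (a read signal), and the deposited H3K9ac lists give a false discovery rate (a q-value) and an average read count (a read signal). These were used within a list. The files give no read totals, so depth is unknown, and a site with no listed peak may still be bound below the threshold. The 4 input libraries were not analysed here.

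Positions are printed as deposited. Overlap meant at least 1 shared bp, and a gap is the distance between facing ends. Peaks were ranked by height, then fold enrichment, then list order, and classes hold nearly equal numbers of all GR peaks, so neighbouring classes share heights. Named regions are the 10 highest sites, the highest near each H3K9ac list (5 at 24 h, 3 at 0 h and at 240 h) or on C/EBPβ 0 h peaks (3), the 3 on each side of the rule, the 3 farthest from C/EBPβ and the 3 windows with most sites. Members, lists and measures were chosen with earlier results of these data known. Peaks were assigned neither to genes nor to sequence here. Python 3.11.15 with pandas 2.3.3, numpy 2.4.6, statsmodels 0.14.6 and matplotlib 3.10.9 was used, and the overlap and interval code was tested on simulated lists.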

Additional observations from a re-analysis of the deposited data

How the results depend on the processing

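No paired analysis was possible because each group is 1 library. Under other settings, 26 differences between GR sites without and with C/EBPβ kept their direction and an interval without 0 and 9 kept direction alone, and 19 shares stayed within their interval and 22 moved out. Under settings chosen after seeing the data (membership by GR centre, width classes, chromosomes 6 and 15 left out), 11 and 2 differences and 10 and 4 shares did so. None of these differences reversed. However, the height difference all but vanished at -0.295 points (-3.37 to 2.78) against the stronger C/EBPβ 6 h peaks. By fold enrichment it was -0.00014 points (-3.28 to 3.28), in effect none. Within single classes some differences did reverse. The height difference was positive in the 3 narrower of the 4 width classes (4.08, 3.38 and 6.92 points), and the 24 h difference was 1.57 in the lowest height class. The 240 h difference was 2.04 within 100 kb. Motif shares were not run, and the share within 1 kb of C/EBPβ 6 h is 0 by construction where no such peak was allowed. Stronger peaks are those in the upper part of their list by height, cut at its middle rank. Unknown depth limits all statements on peaks missing from a list.

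The share of GR peaks without C/EBPβ was 31.3% among the stronger GR peaks, 29.6% with no C/EBPβ 6 h peak within 1 kb, 48.2% against the stronger C/EBPβ 6 h peaks, 35.4% by GR centre and 35.8% without chromosomes 6 and 15. Sites with a C/EBPβ 6 h peak within 1 kb were 6.89% against the stronger C/EBPβ peaks and 16.5% by GR centre, and 49.96% and 93.8% within 10 and 100 kb. For C/EBPβ 0 h the share was 1.52% with no C/EBPβ 6 h peak within 1 kb, 7.41% against the stronger C/EBPβ 6 h peaks, 1.12% by overlap and 25.8% within 10 kb.

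At or above the median GR height, recomputed in each setting, stood 44.6% among the stronger GR peaks, 55.7% against the stronger C/EBPβ 6 h peaks, 50.04% by fold enrichment and 47.0% without chromosomes 6 and 15. The difference from sites with C/EBPβ fell to -0.295 points against the stronger C/EBPβ peaks and to -0.00014 by fold enrichment.

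Shares near H3K9ac regions of 0, 24 and 240 h were 10.53%, 13.2% and 12.99% within 10 kb and 2.39%, 2.32% and 1.94% for regions with an FDR of 0. By overlap those of 0 and 240 h were 2.17% and 2.24%, and among the stronger GR peaks that of 24 h was 7.99%. The 0 h difference lost its call at -0.857 points (stronger GR peaks), -1.24 (stronger C/EBPβ 6 h peaks), -1.76 (10 kb), -0.983 (FDR of 0) and -1.26 (GR centre). The 240 h difference lost it at -1.08 (stronger GR peaks), -0.686 (10 kb) and -1.06 (FDR of 0), and the 24 h difference at -1.64 (width classes). The cause was not tested.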
